A study of Rattus norvegicus with 4 samples.

Results

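The 9 genes described here act in or on the brakes of cell division that matter in an immortalized cell line. They are Mdm2, the p53 inhibitor, Rb1, the retinoblastoma gene, the CDK inhibitor genes Cdkn1a, Cdkn1b, Cdkn1c, Cdkn2a, Cdkn2b and Cdkn2c, and Tert, the catalytic subunit of telomerase. The genes were chosen by symbol, and all 9 were found among the 30708 genes listed in each library. Expression was measured by RNA-Seq of poly(A) RNA in S16 cells, an immortalized rat Schwann cell line that the labels call a myelinating Schwann cell. Unmodified S16 cells were sampled as 2 populations, at passage 9 (the parental cells of the study's enhancer-deleted clones) and at passage 39, and each gave 2 libraries labelled technical replicates 1 and 2. RNA came from confluent flasks, and passage was the only labelled difference between the 2 populations.

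Values are RPKM, a read count divided by gene length in kilobases and by library size in units of 1000000 reads, which allows levels of different genes to be compared per length. Library totals recovered from the RPKM values lay between 34246093 and 41382234 reads. All 9 Schwann cell markers on the list that was used, among them Pmp22, Sox10 and Mag, were above 1 RPKM, whereas all 6 neuronal markers were below it, 3 of them listed at 0 in every library. One feature of the series touches every comparison below. Over the 11025 tested genes, those averaging 1 RPKM or more, the SD of the log2 differences was 0.339 and 0.334 between the technical replicates of passage 9 and passage 39, but 0.0796 and 0.0823 between libraries of different passages that bear the same technical replicate number. The mean chi-square per gene on recovered reads, which is near 1 under counting error alone, was 1.15 and 1.43 between libraries of the same number, against 74.8 to 78.5 between the technical replicates of a passage. The labels thus do not match the closeness of the libraries. Whether labels were exchanged or a number marks a shared batch cannot be told apart here, so differences between passages, and each SD over the 2 populations, hold only as the labels stand. Values are therefore given for every library, and both by passage and by technical replicate number. In these bulk samples, a smaller number of cells expressing a gene and less RNA per cell cannot be told apart.

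Cells leave the G1 phase of the cell cycle when D cyclins with CDK4 or CDK6, and then E cyclins with CDK2, phosphorylate the retinoblastoma protein and release E2F transcription factors. The INK4 inhibitors (p16, p15 and p18, from Cdkn2a, Cdkn2b and Cdkn2c) bind CDK4 and CDK6, whereas the Cip/Kip inhibitors (p21, p27 and p57, from Cdkn1a, Cdkn1b and Cdkn1c) act on cyclin-bound CDK2. The transcription factor p53 induces both Cdkn1a and its own antagonist Mdm2, a ubiquitin ligase, and the Arf protein, also made from Cdkn2a, inhibits Mdm2. Telomerase limits telomere shortening during repeated division, and immortal lines commonly have an altered p53, Rb or telomere pathway.

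Short promoter stretches are shown for 2 of these genes, as examples of matches to consensus letters of the factors at the end of the p53 and Rb branches. The sequences are RefSeq entries in the GRCr8 assembly, which is a newer build than the one the authors aligned to, and 8 of the 9 genes had an entry (Cdkn1c did not). The first stretch lies on the plus strand at chr20:7150701-7150770, the second on the minus strand at chr15:54911837-54911866.
Cdkn1a: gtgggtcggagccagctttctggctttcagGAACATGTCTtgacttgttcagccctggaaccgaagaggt
Rb1: ggaagtgacgtTTTCCCGCggttggcccgg
In Cdkn1a the capitals mark a match to the p53 half-site consensus, found on either strand, at positions -201 to -192 relative to the transcript start. In Rb1 they mark an E2F site, spelled as TTTCCCGC, TTTCGCGC, TTTGCCGC or TTTGGCGC on either strand. Of all 33469 promoters of 300 bases, 7.98% held the half-site and 2.14% an E2F site, against 3 (Rb1, Cdkn1a and Cdkn2c) and 1 (Rb1) of these 8. The half-site matches of Rb1 and Cdkn2c are not shown. All these matches describe letters only, and no binding was measured.

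Of the 9 genes, 7 were detected, that is, had a mean of 1 RPKM or more, and Cdkn1c and Tert were below this level. By mean RPKM over the 2 populations the order was Cdkn1b (49.2), Mdm2 (33.2), Cdkn2a (32.6), Cdkn1a (16.3), Rb1 (14.8), Cdkn2c (11.5), Cdkn2b (2.64), Cdkn1c (0.683) and Tert (0.0969). Neighbours in this order did not overlap over the 4 libraries, except Mdm2 and Cdkn2a, of which each was the higher in 2 of 4 libraries. As a ratio, the smallest gap without overlap was between Cdkn1a, at 15.8 RPKM or more, and Rb1, at 15.03 RPKM or less. In 4 of 4 libraries neighbours stood in this order, except Mdm2 and Cdkn2a, and the scaling of the libraries does not enter that. It does enter the overlap of ranges across libraries, which was read only as deposited. The gene length behind each RPKM value enters both. The recovered lengths ran from 713 bases for Cdkn2a and 1101 bases for Rb1 to 4413 bases for Cdkn2b. The gene models behind them are not given in the sources used here, since the deposited values name RefSeq and the study's methods Ensembl. Whether 1101 bases for Rb1 and 2208 bases for Tert cover whole transcripts is unknown, and their RPKM and place in the order depend on it.

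**Figure D1:**
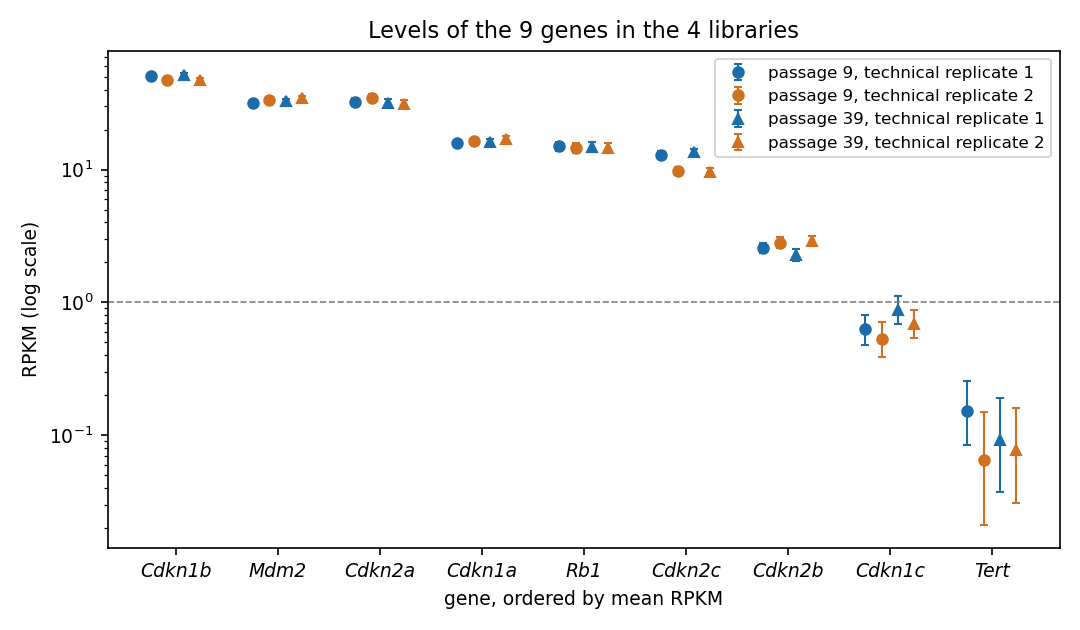
RPKM of the 9 genes (log scale) in each of the 4 libraries, with circles for passage 9, triangles for passage 39, blue for technical replicate 1 and orange for technical replicate 2; bars are exact 95% counting intervals and the dashed line is at 1 RPKM. The genes span from 51.5 RPKM for Cdkn1b to 0.0645 RPKM for Tert, and Cdkn2c is the gene of the 7 above the line whose 2 blue points stand clearly above its 2 orange points.

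Mdm2, which keeps p53 low, was at 32.0 and 33.5 RPKM in technical replicates 1 and 2 of passage 9 and at 32.8 and 34.6 RPKM in those of passage 39 (mean 33.2 ± 0.696, SD, n = 2 populations). As deposited, each second library was thus slightly above the first, by 1.05-fold in both passages, and the passages overlapped. Mdm2 ranked 2165 among the 30708 genes, above 80.4% of the tested genes. Cdkn1a, the p53 target that encodes p21, had 15.8 and 16.4 RPKM at passage 9 against 16.1 and 17.1 RPKM at passage 39 (16.3 ± 0.389, SD, n = 2). It rested on 1670 to 2121 reads per library, and no pair of its libraries compared within a passage or a replicate number differed beyond counting error.

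Other genes of the p53 branch were present alongside. All 16 listed p53 regulators were at 1 RPKM or more, from Rpl11 (203 RPKM), a ribosomal protein that can bind Mdm2, to Chek2 (3.32 RPKM), a kinase of the DNA damage checkpoint. Of 26 listed p53 target genes, a list that includes Cdkn1a and Mdm2, 22 were at 1 RPKM or more. The highest were Phlda3 (145 ± 1.07 RPKM), an inhibitor of Akt signalling, and Ccng1 (93.8 ± 0.326 RPKM), which encodes cyclin G1 (SD, n = 2 for each). Pmaip1, a pro-apoptotic BH3-only gene, was above 0 in 1 library only, and Perp was listed at 0 in all 4. The list's median level was 7.26 RPKM, and both Mdm2 and Cdkn1a lay above it.

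In RPKM as deposited, Rb1 was the steadiest of the 9 genes. It was at 15.03 and 14.6 RPKM in technical replicates 1 and 2 of passage 9 and at 14.9 and 14.6 RPKM in those of passage 39 (14.8 ± 0.0403, SD, n = 2). The highest library was 1.03-fold above the lowest, and the counting intervals of all 4 libraries overlapped, with the outermost limits at 13.4 and 16.2 RPKM. This place depends on the scaling. The log2 difference of Rb1 between technical replicates 2 and 1 was -0.033 as deposited. After rescaling to a sum of 1000000 it was -0.18, larger in size than that of Mdm2 (-0.075). In GRCr8 the gene Lpar6 overlaps Rb1. If the deposited values were counted without strand, as the study's methods describe, reads in shared exons could not be assigned. Of the 17 listed pocket proteins, E2F and DP factors and their partners, 16 were at 1 RPKM or more. Mybl2, a cell cycle transcription factor, led at 34.6 RPKM, followed by E2f4 at 30.4 RPKM, a mostly repressive E2F, whereas Lin52 (1.53 RPKM) and Lin9 (0.544 RPKM), subunits of the complex that joins pocket proteins to E2F, were the lowest. All 20 listed E2F target genes were at 1 RPKM or more, with a median of 44.9 RPKM and with Pcna, the DNA polymerase clamp, at 274 RPKM.

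Among the Cip/Kip genes, Cdkn1b, which encodes p27, was the highest of all 9 genes in each library. It had 50.3 and 47.3 RPKM at passage 9 against 51.5 and 47.7 RPKM at passage 39 (49.2 ± 0.574, SD, n = 2). Both first libraries were above both second ones, by 1.06-fold and 1.08-fold, whereas the passages overlapped. Cdkn1c, the imprinted gene for p57, had 0.626 and 0.532 RPKM at passage 9 against 0.880 and 0.692 RPKM at passage 39 (0.683 ± 0.146, SD, n = 2). It rested on 61, 44, 71 and 67 reads, and although both passage 39 libraries were above both passage 9 libraries, no ratio of its libraries excluded 1. Cdkn1b made up 72.8% to 75.4% of the summed Cip/Kip RPKM, Cdkn1a 23.5% to 26.1% and Cdkn1c 0.829% to 1.28%.

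The 10 genes on the list drawn up for the turnover of p27 and p21 were at 1 RPKM or more. They ran from Skp1 (239 RPKM), a core subunit of SCF ubiquitin ligases, to Fbxw7 (1.54 RPKM). Skp2, the F-box protein that recognizes p27, was at 12.0 ± 0.116 RPKM (SD, n = 2), which was the second lowest level of this list.

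**Figure D2:**
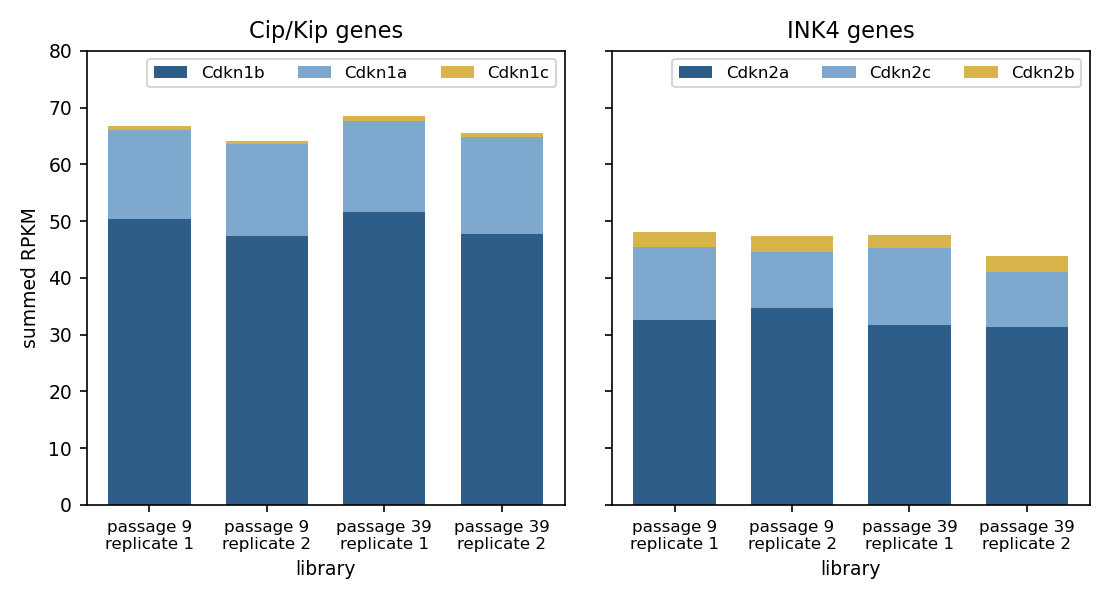
Stacked bars of the summed RPKM (linear axis from 0) of the 3 Cip/Kip genes (left) and the 3 INK4 genes (right) in each of the 4 libraries. Cdkn1b and Cdkn2a make up most of each bar, the Cip/Kip sums lie between 64.2 and 68.6 RPKM and the INK4 sums between 43.9 and 48.1 RPKM.

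Cdkn2a was the leading INK4 gene, at 32.5 and 34.8 RPKM in technical replicates 1 and 2 of passage 9 and at 31.7 and 31.3 RPKM in those of passage 39 (32.6 ± 1.49, SD, n = 2). The passage 39 libraries were both below the passage 9 libraries, with ratios of 0.976 (95% counting interval 0.886 to 1.07) in the first and 0.901 (0.821 to 0.990) in the second technical replicates. Only the latter interval excluded 1, and it was the only such ratio among the 18 computed between passages. Among that many 95% intervals, counting error alone can leave 1 outside, and the share over all tested genes was not computed. Cdkn2a makes p16 and Arf from transcripts that share exons, and which of their exons the single gene value counts is not known, so their parts could not be told apart. Reads from its neighbour Cdkn2b that match both genes equally would be in neither value if only uniquely mapped reads were kept, as the study's methods describe.

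Cdkn2c, which encodes p18, had 13.0 and 9.79 RPKM at passage 9 against 13.5 and 9.65 RPKM at passage 39 (11.5 ± 0.145, SD, n = 2). The 2 first libraries were similar, the 2 second libraries were similar, and the second were 1.32-fold and 1.40-fold below the first within passage 9 and passage 39. Neither 95% counting interval of the ratio, 0.689 to 0.829 and 0.652 to 0.783, came near 1. Cdkn2b, which encodes p15 and responds to TGF-beta, had 2.57 and 2.82 RPKM at passage 9 against 2.28 and 2.89 RPKM at passage 39 (2.64 ± 0.0810, SD, n = 2). Its second libraries were above its first, and the ratio excluded 1 at passage 39 (1.27, 1.11 to 1.46) but not at passage 9 (1.10, 0.960 to 1.25).

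Within the INK4 sum, Cdkn2a contributed 66.8% to 73.4%, Cdkn2c 20.7% to 28.4% and Cdkn2b 4.79% to 6.59%. Of the kinases that INK4 proteins bind, Cdk4 was listed well above every INK4 gene, whereas Cdk6 was below Cdkn2a in every library. Cdk4 was at 563 ± 4.09 RPKM and Cdk6 at 15.2 ± 0.519 RPKM (SD, n = 2). The sum of both, which was mostly Cdk4, was 11.5 to 13.8 times the INK4 sum, per library and per length. These are RNA levels, and protein was not measured. All 11 listed cyclins and CDKs were at 1 RPKM or more, with Cdk1, the mitotic kinase, second at 153 RPKM.

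The Ink4 locus is a known target of Polycomb repression. Of 18 listed Polycomb genes and other regulators or neighbours of this locus, 17 were at 1 RPKM or more. Ezh2, the Polycomb methyltransferase, was the highest at 57.1 ± 0.965 RPKM, followed by Id1, an inhibitor of bHLH factors, at 45.5 ± 2.09 RPKM (SD, n = 2). The lowest were Tbx2, a T-box repressor of the locus, at 1.44 RPKM and Cbx7, a Polycomb reader, at 0.996 RPKM.

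Tert was listed at 0.153 and 0.0645 RPKM in technical replicates 1 and 2 of passage 9 and at 0.0926 and 0.0772 RPKM in those of passage 39 (0.0969 ± 0.0170, SD, n = 2). These values rested on 14, 5, 7 and 7 reads. All 4 were above the level of 3 reads, which was 0.0328 to 0.0397 RPKM for a gene of its recovered length of 2208 bases, and their counting intervals overlapped, from 0.0210 RPKM at the lowest limit to 0.257 RPKM at the highest. The first library of passage 9 was thus nominally the highest, but no ratio of Tert between libraries excluded 1. Both first libraries were above both second libraries, and the passages overlapped. Tert was above 54.2% of all listed genes, among which 12690 to 13156 were listed at 0 in a given library.

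Most other listed genes of telomerase, its assembly and its regulation were far above Tert. Of 10 listed genes, 8 were at 1 RPKM or more, led by Dkc1, the pseudouridine synthase dyskerin, at 62.0 ± 1.31 RPKM, and Ruvbl2, an ATPase used in assembly, at 37.5 ± 0.0606 RPKM (SD, n = 2). The exceptions were Nhp2, with 2 reads in all, and Terc, the template RNA, which was above 0 in 1 library only and lacks the long poly(A) tail on which the libraries were selected. All 12 listed genes of shelterin and telomere maintenance were at 1 RPKM or more, in a narrow range from Atrx (6.004 RPKM), a chromatin remodeller, to Acd (20.3 RPKM), the shelterin subunit TPP1.

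Between passage 9 and passage 39, none of the 7 tested members differed 2-fold on the log2(RPKM + 1) scale, which understates the change of low genes. In the background, 0.00907% of the 11025 tested genes did so. The log2 differences, passage 39 minus passage 9, ran from -0.091 for Cdkn2a to 0.046 for Cdkn1a, with a median of 0.023 against -0.0021 over all tested genes. In 1 of the 7 members, Cdkn2a, the libraries of the passages did not overlap, against 6.21% of all tested genes (3.11% lower and 3.1% higher at passage 39). With a single population per passage there is no test of this difference, and 2 against 2 libraries could not reach an exact permutation p below 0.33. Cdkn1c, which was below the minimum for this comparison, had a log2 difference of 0.18, from a mean of 0.579 RPKM to one of 0.786 RPKM.

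By technical replicate number, likewise, none of the 7 tested members differed 2-fold, where the background was 1.09% of all tested genes (0.363% higher and 0.726% lower in the second libraries). In 6 of the 7 the libraries of the 2 numbers did not overlap, against 87.7% of all tested genes. Both second libraries were the higher for Mdm2, Cdkn1a and Cdkn2b (57.2% of all tested genes) and the lower for Rb1, Cdkn1b and Cdkn2c (30.5%), and Cdkn2a overlapped. The whole distribution was shifted, with a median log2 difference, second minus first, of 0.10 over all tested genes, which became -0.026 after rescaling to a common sum and 0.027 after median-ratio scaling. Relative to the median as deposited, Cdkn2c was at -0.51, Cdkn1b at -0.20, Rb1 at -0.14, Cdkn2a at -0.065, Cdkn1a at -0.040, Mdm2 at -0.035 and Cdkn2b at 0.067. As unadjusted differences of means over both passages, Rb1, Cdkn1b and Cdkn2c were lower and Cdkn2b was higher in the second libraries under these 3 scalings. Mdm2, Cdkn1a and Cdkn2a were higher as deposited and lower under both others. Within a passage the direction can differ. At passage 9, Cdkn2b had 2.57 and 2.82 RPKM in libraries summing to 315847 and 351061 RPKM. Rescaled to a common sum, its second library there is no longer the higher.

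As deposited, 7 of the 18 ratios between technical replicates of a passage had a counting interval that excluded 1. Mdm2 (above 1), Cdkn1b and Cdkn2c (below 1) had both on the same side. The share of such ratios over all tested genes was not computed. The lower limits of Mdm2 were 1.002 and 1.009, and its difference by technical replicate number was negative under the other scalings. The mean chi-square per gene between the technical replicates of a passage was 74.8 to 78.5, so differences beyond counting error were not confined to the members. Whether the count of 7 is particular to the members was not tested. Cdkn2c was the tested member farthest from the median by technical replicate number, and 9.02% of all tested genes lay at least as far from it. The Schwann cell marker list moved with the same split, with summed levels of 2049 to 2063 RPKM in the first and 1959 to 1980.3 RPKM in the second libraries, and 2 of 9 markers 2-fold lower in the second. Without overlap, 6 of the 9 were lower (30.5% of all tested genes) and 3, Pmp22, Sox10 and Egr2, were higher (57.2%). The fibroblast list, of which 3 of 7 genes were at 1 RPKM or more and Thy1 and Fap were at 0, had sums of 3432 to 3445 and 3826 to 3933 RPKM. That sum was mostly Col1a1 (3344 to 3877 RPKM), and Col3a1 had the opposite direction, at 82.8 and 81.9 RPKM in the first and 50.3 and 48.5 RPKM in the second libraries. The part of these in the difference of Cdkn2c was not tested. Relative to genes of similar length, which also removes the shift of all genes, the log2 difference was -0.56 for Cdkn2c and -0.23 for Cdkn2a. Relative to the median of all tested genes these were -0.51 and -0.065.

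**Figure D3:**
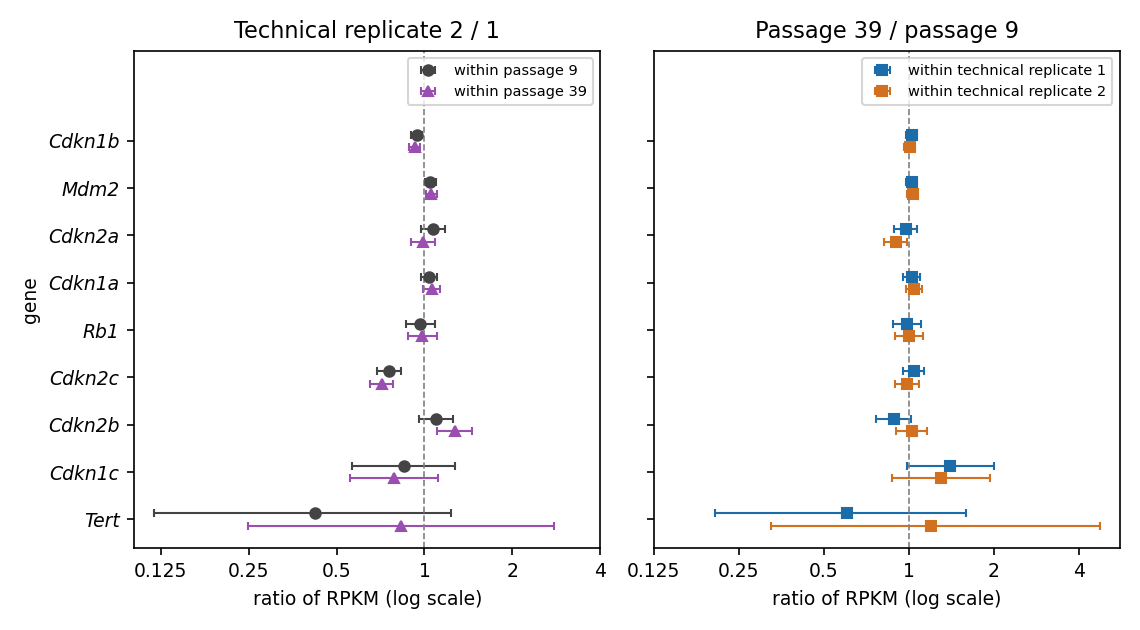
Ratio of RPKM (log scale) for each gene between technical replicates 2 and 1 within each passage (left) and between passage 39 and passage 9 within each replicate number (right), with exact 95% counting intervals and a dashed line at 1. On the left the 2 ratios of Cdkn2c, 0.756 and 0.714, lie well below 1, and on the right the intervals cross 1 except for Cdkn2a in technical replicate 2.

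Over the pathway lists, 144 genes besides the members were listed and 135 had a mean of at least 1 RPKM. None of these 135 differed 2-fold between the passages, and 6 did not overlap, which is 4.44% of them against 6.21% of all tested genes. By technical replicate number 4 differed 2-fold, where the background was 1.09% of all tested genes, and 121 did not overlap, which is 89.6% of them against 87.7% of all tested genes. All 4 were on the list of senescence markers, where 10 of 11 genes were tested. Ccl2, a chemokine, was at 2.57 and 2.81 RPKM in the first libraries of passage 9 and passage 39 and at 19.1 and 16.6 RPKM in the second. Cxcl1, another chemokine, was at 1.06 and 0.720 RPKM in the first and at 7.12 and 8.37 RPKM in the second. In the opposite direction, Igfbp5 was at 25.7 and 24.9 RPKM in the first and 6.13 and 5.66 RPKM in the second libraries, and Igfbp3 at 14.98 and 15.2 against 3.49 and 3.70 RPKM. Both encode secreted binding proteins of insulin-like growth factors. The list thus had 2 genes in each direction, and its median log2 difference was -0.00065, against 0.10 over all tested genes.

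No gene of the other lists reached 2-fold on the log2(RPKM + 1) scale in either comparison. With a pseudocount of 0.1 RPKM, 7 pathway genes did so by technical replicate number, the others being Eda2r, Tbx2 and Il6. Of these, which were named after their values were seen, Eda2r, a p53 target gene, was at 4.48 and 4.74 RPKM in the first and 1.79 and 1.89 RPKM in the second libraries. By technical replicate number the medians of these other lists ran from -0.11 for the cyclins and CDKs to 0.28 for the telomerase list. All 8 tested genes of the latter were higher in both second libraries (57.2% of all tested genes were). Between passages the medians of all 10 lists, the senescence markers included, lay between -0.017 and 0.024, a narrower range.

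**Figure D4:**
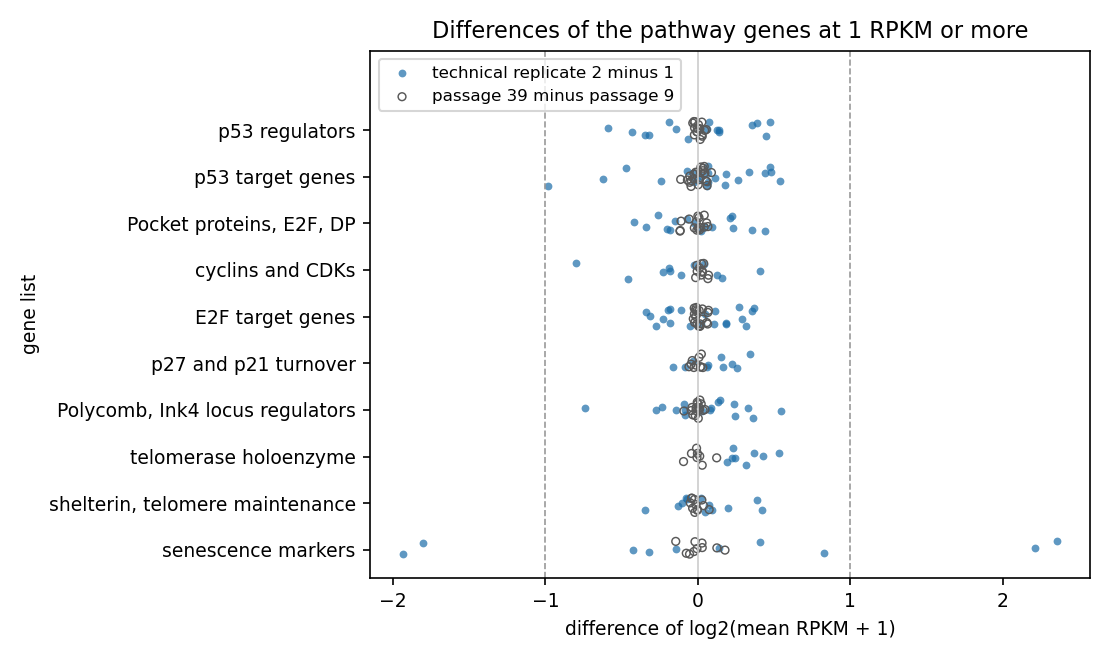
Difference of log2(mean RPKM + 1) for each gene of the pathway lists at 1 RPKM or more, filled for technical replicate 2 minus 1 and open for passage 39 minus passage 9, with dashed lines at 2-fold; genes on more than 1 list appear on each, and vertical scatter within a list only separates points. Open points cluster at 0, filled points spread wider, and the 4 filled points beyond 2-fold are Igfbp5, Igfbp3, Cxcl1 and Ccl2.

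For each tested member the 3 genes closest in level and pattern were found by Euclidean distance of log2(RPKM + 1) over the 4 libraries. Hn1l (distance 0.034), Galnt10 and Hnrnpa3 were closest to Cdkn1b, and Cdk14 (0.028), Sdc3 and Sypl1 to Mdm2. The closest genes were Mrpl49 (0.080), Map7d1 and Pak4 for Cdkn2a, Slc33a1 (0.028), Eif2ak1 and Tacc2 for Cdkn1a, and Limd1 (0.035), Lrrc8a and Tor1aip2 for Rb1. Zcchc14 (0.047), Ubr4 and Arhgap31 were nearest to Cdkn2c, and LOC102556190 (0.058), Nsun6 and Sap25 to Cdkn2b. Such neighbours are not rare, since between 54 genes (for Cdkn2c) and 195 genes (for Cdkn1a) lay within 0.2 of a member.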

How the data were processed

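RNA-Seq was available for 4 libraries, 2 each from S16 cells at passage 9 and passage 39. According to the study's methods, TruSeq libraries were read as single ends of 50 bases, checked with FastQC, aligned to rat rn5 with STAR keeping uniquely mapped reads, and counted with HTSeq without strand. The authors deposited RPKM per gene symbol of RefSeq, with no lengths or totals.

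From these, library totals, gene lengths and reads were recovered for 18114 genes, taking the smallest integers from which the values follow, so a factor common to all libraries may be hidden. Depth was 34246093 to 41382234 reads. The study's methods give a lower number of reads per cell line, and the difference was not resolved; read counts and intervals rest on the recovered totals. Exact 95% intervals (Clopper-Pearson for levels, conditional binomial for ratios) cover counting error only, since no molecular identifiers were used and reads can be copies of a molecule. Libraries were averaged within a passage or a technical replicate number and compared as log2(mean RPKM + 1), over genes averaging 1 RPKM or more, and 2-fold was the threshold. Each SD was taken between the population means. Each passage being 1 population, no test was run. Python 3.11.15, numpy 2.4.6, pandas 2.3.3, scipy 1.17.1 and matplotlib 3.10.9 were used, and the code was tested on simulated data.

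Members and gene lists were chosen with earlier results of these data known. The genes named are the members, the 2 highest and 2 lowest of each list, genes differing 2-fold, and the 3 nearest genes of each member. Where the text names other list genes (markers), it is for their role. Of 148 pathway genes looked up, 144 matched by symbol. Alternatives were 3 scalings, a pseudocount of 0.1 RPKM, no minimum, a minimum of 5 RPKM, a length correction in 20 bins, blocking and leaving out each library. Protein sequences were not used here, and 1 Schwann cell marker and 1 senescence marker are not reported here.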

Additional observations from a re-analysis of the deposited data

How the results depend on the processing

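The number of members detected, 7, was 8 when 0.1 RPKM sufficed and 6 when 5 RPKM was required, and stayed at 7 under median-ratio scaling and without any 1 library. No member differed 2-fold in either comparison under any alternative that was run. Between passages, the number of members whose libraries did not overlap, 1, was 0 after rescaling to a sum of 1000000 or to the mean of the deposited sums, 3 after median-ratio scaling and 2 with no minimum. Leaving out 1 library gives the passages unequal mixes of replicate numbers, and 1 library separates from 2 more easily than 2 from 2. The non-overlap count was then 3 and 4 without the first and second technical replicate of passage 9 and 5 and 4 without those of passage 39, 2 pathway genes in place of 0 differed 2-fold in each case, and the median of the members, 0.023, was between -0.020 and 0.016. By technical replicate number that median, 0.039, was -0.11 after rescaling to 1000000, -0.10 after rescaling to the mean sum and -0.048 after median-ratio scaling. It was -0.033 with no minimum and between -0.031 and 0.048 without 1 library. Relative to genes of similar length it was -0.23, a setting that also removes the median shift of all tested genes, 0.10 as deposited. The pathway genes differing 2-fold, 4, were 7 with a pseudocount of 0.1 RPKM and 4 to 5 without 1 library. They were 6 after rescaling to 1000000 and relative to genes of similar length. After median-ratio scaling and rescaling to the mean sum they were 5, and with a minimum of 5 RPKM 3. The members not overlapping by technical replicate number, 6, were 4 after median-ratio scaling, 5 with a minimum of 5 RPKM and 7 with no minimum. Both rescalings to a common sum left them at 6. For the non-overlap counts under alternatives, in both comparisons, the share over all tested genes was not computed, so a change in them cannot be read as particular to the members. Over all tested genes 40 were 2-fold higher and 80 lower in the second libraries, against 53 and 189 after rescaling to 1000000, which also makes the pseudocount smaller relative to the values, 27 and 128 after rescaling to the mean of the deposited sums, which does not, and 29 and 112 after median-ratio scaling. The rescaling to the mean sum was chosen after seeing the data.

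With the replicate number as a block, the median of the members between passages was 0.018 and no call changed. The labels do not say that a number marks a shared batch, although libraries of the same number deviated together from their passage means (correlation 0.94 over 11025 genes, which are not independent). The cause of these changes was not tested. Depth limits Tert most, at 5 to 14 reads per library, and then Cdkn1c.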
